A study of Mus musculus with 11 samples.

Results

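MyoG sites without MyoD are the stretches of the mouse genome at which the muscle transcription factor MyoG was found bound in myotubes and at which no MyoD peak was listed, either in the same myotubes or in the myoblasts they came from. They were chosen by the measured peak positions, as the MyoG peaks that share not even 1 bp with a MyoD peak of either stage. There were 7081 of them among 35380 MyoG peaks, or 20.0%. Of the other MyoG peaks, 11334 (32.0%) overlapped MyoD at both stages, 16108 (45.5%) overlapped MyoD in myotubes only, and 857 (2.42%) overlapped MyoD in myoblasts only. These shares follow from the choice of the sites and carry no test.

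The cells were C2C12, a myoblast line from C3H mice that stops dividing in low serum and whose cells then fuse into multinucleate myotubes. Sequencing of immunoprecipitated chromatin (ChIP-seq) was done for MyoD in proliferating myoblasts, for MyoD and MyoG in myotubes at 48 h of differentiation, and for the histone mark H3K4me1 at both stages. PolyA RNA was sequenced at 4 h of differentiation from cells with RNAi against the enhancer RNA of the DRR, a regulatory region of the MyoD gene (DRRi), with control RNAi to GFP (GFPi), or with overexpression of the DRR RNA (pHAN_DRR1.2) or of GFP (pHAN_GFP). Growth medium held 10% fetal bovine serum and differentiation medium 2% horse serum with insulin, transferrin and selenium. Each of the 11 groups held 1 sample, so differences between them stand without replicates, and 2 groups of ribosome-depleted RNA were not analysed here. How the RNAi was delivered, which promoter drove the overexpressed RNA and whether clones were pooled is not given in the sources used here.

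Both factors, MyoD and MyoG, belong to the same family of basic helix-loop-helix proteins, bind DNA as dimers with E proteins, and recognise the short E-box CANNTG, where N is any base. MyoD is already made in dividing myoblasts and can open chromatin at muscle genes, whereas MyoG appears when the cells begin to differentiate and acts on late muscle genes, often at places that MyoD also binds. H3K4me1 is laid down at enhancers, both active ones and ones that are only primed, and is weak or absent at the centre of strong promoters. The myogenic identity of the cells was visible in the RNA: 6 of 6 myogenic markers (Myod1, Myf5, Des, Itga7, Cdh15 and Myog) stood above 1 FPKM in all 4 libraries, with a summed level of 407 to 1014 FPKM. Of the endothelial markers Pecam1, Cdh5 and Kdr, 3 of 3 stayed at 0.0817 FPKM or less. Of 3 adipocyte markers, Adipoq and Plin1 were at or near 0 and Pparg ranged from 7.62 to 10.3 FPKM. Of 2 blood markers, Ptprc was at or near 0 and Cd68 ranged from 1.58 to 2.52 FPKM. Of 3 neural markers, the neuronal Rbfox3 and the glial Gfap were at or near 0 and Tubb3 ranged from 24.5 to 91.0 FPKM. Of 4 fibroblast markers, Thy1 was at or near 0, Col1a1 ranged from 4.32 to 22.5 FPKM, Dcn from 0.102 to 7.78 FPKM and Pdgfra from 0.774 to 1.65 FPKM. The part of other cell types in the results was not tested.

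To show the sequence next to gene starts under such sites, the 250 bases upstream of 6 starts covered by a MyoG peak without MyoD are printed. They are for the peaks of highest score whose gene could be matched to a RefSeq start, and a peak need not cover the whole stretch. They are followed by the same stretch of the 2 matched genes with the strongest MyoG peaks over a start among the peaks that do overlap MyoD. The sequences are from RefSeq on GRCm38.p6, read 5′ to 3′ toward the gene, with every CANNTG in capitals. The peaks themselves are given in mm9, the build of the deposited lists.
Sf3b2: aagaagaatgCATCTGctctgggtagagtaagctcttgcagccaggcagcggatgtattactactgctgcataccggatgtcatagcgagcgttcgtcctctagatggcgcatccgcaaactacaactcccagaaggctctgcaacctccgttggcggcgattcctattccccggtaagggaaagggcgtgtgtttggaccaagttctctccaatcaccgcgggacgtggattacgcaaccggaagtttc
Pin4: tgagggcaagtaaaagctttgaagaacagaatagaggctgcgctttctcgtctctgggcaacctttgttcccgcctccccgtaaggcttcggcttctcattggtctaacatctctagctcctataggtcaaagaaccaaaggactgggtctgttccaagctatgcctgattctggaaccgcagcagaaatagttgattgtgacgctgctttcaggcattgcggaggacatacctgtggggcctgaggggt
Ppap2c: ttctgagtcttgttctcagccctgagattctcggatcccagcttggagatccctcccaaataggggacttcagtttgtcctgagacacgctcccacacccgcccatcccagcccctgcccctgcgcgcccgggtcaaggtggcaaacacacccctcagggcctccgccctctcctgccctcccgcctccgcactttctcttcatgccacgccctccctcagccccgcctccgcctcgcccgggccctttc
Dguok: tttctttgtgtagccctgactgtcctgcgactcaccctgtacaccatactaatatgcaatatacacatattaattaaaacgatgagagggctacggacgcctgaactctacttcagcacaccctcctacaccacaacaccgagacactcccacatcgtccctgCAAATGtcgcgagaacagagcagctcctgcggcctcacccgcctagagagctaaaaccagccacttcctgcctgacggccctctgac
Eif2b2: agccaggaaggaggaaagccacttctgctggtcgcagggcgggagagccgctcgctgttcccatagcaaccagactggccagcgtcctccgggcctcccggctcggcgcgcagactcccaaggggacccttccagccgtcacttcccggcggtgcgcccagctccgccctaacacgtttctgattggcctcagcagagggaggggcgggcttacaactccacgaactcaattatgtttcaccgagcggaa
Prcc: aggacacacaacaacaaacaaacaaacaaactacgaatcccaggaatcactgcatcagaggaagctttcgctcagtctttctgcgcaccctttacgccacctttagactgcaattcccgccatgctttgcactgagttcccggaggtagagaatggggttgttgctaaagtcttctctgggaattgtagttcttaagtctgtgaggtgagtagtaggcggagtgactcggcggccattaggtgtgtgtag
Sf3b2 makes a subunit of the splicing machinery; its stretch is chr19:5295458-5295707 on the minus strand, and the mm9 peak is chr19:5295290-5296095 with a score of 178.38. Pin4, a prolyl isomerase gene, has chrX:102119219-102119468 on the plus strand and an mm9 peak at chrX:99314349-99315126 with a score of 153.45. Ppap2c, a lipid phosphatase gene that RefSeq calls Plpp2, has chr10:79533788-79534037 on the minus strand and an mm9 peak at chr10:78995108-78996607 with a score of 152.75. Dguok makes the mitochondrial deoxyguanosine kinase; its stretch is chr6:83506970-83507219 on the minus strand and its mm9 peak is chr6:83456755-83457581, with a score of 152.4. Eif2b2 makes a subunit of the exchange factor for translation initiation factor eIF2 and has chr12:85219231-85219480 on the plus strand, with an mm9 peak at chr12:86560414-86561151 and a score of 145.09. Prcc, known from its fusion in papillary renal carcinoma, has chr3:87885563-87885812 on the minus strand and an mm9 peak at chr3:87689424-87689974 with a score of 140.39.

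For comparison, the starts of Chrna1, the muscle acetylcholine receptor alpha subunit, and Tmem109, a membrane protein gene, lie under MyoG peaks with MyoD at both stages.
Chrna1: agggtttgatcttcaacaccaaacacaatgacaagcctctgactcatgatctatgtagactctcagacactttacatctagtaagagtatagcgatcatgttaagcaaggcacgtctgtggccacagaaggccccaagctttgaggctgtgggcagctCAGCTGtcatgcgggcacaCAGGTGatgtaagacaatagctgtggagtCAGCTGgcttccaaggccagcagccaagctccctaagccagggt
Tmem109: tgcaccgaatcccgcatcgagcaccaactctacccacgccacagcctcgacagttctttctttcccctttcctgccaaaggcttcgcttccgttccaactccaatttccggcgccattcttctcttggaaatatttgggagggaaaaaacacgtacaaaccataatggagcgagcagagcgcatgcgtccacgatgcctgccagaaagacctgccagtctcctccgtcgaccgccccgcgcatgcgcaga
The Chrna1 stretch is chr2:73580339-73580588 on the minus strand under an mm9 peak at chr2:73418024-73419726 with a score of 1685.08. The Tmem109 stretch is chr19:10881744-10881993 on the minus strand under an mm9 peak at chr19:10955219-10956517 with a score of 1257.89. Among the 6 starts without MyoD, Sf3b2 and Dguok held 1 E-box each (CATCTG and CAAATG) and the other 4 held 0. The Eif2b2 peak begins at 86560414, close upstream of the start at 86560462 in mm9. The Ppap2c peak ends at 78996607, close upstream of the start at 78996532. Most of the printed stretch of Eif2b2 and of Ppap2c thus lies outside the peak. Chrna1 held 3 E-boxes, of which 2 were CAGCTG and 1 was CAGGTG, whereas Tmem109 held 0. A match is a description of letters, and a stretch without a match says nothing of what binds there.

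The MyoG peaks without MyoD were weak and short by the measures of their own list. Their scores, given by the authors and used only within the MyoG list, had a median of 77.82 with quartiles at 67.35 and 99.33, close to the lowest score of 60 in the list. The median was 256.175 for MyoG peaks with MyoD at both stages, 144.92 for those with myotube MyoD only and 86.14 for those with myoblast MyoD only. Their length had a median of 465 bp (quartiles 400 and 547), against 603 bp for all other MyoG peaks. Both measures come from the MyoG library that chose the sites, so these values are descriptions.

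**Figure D1:**
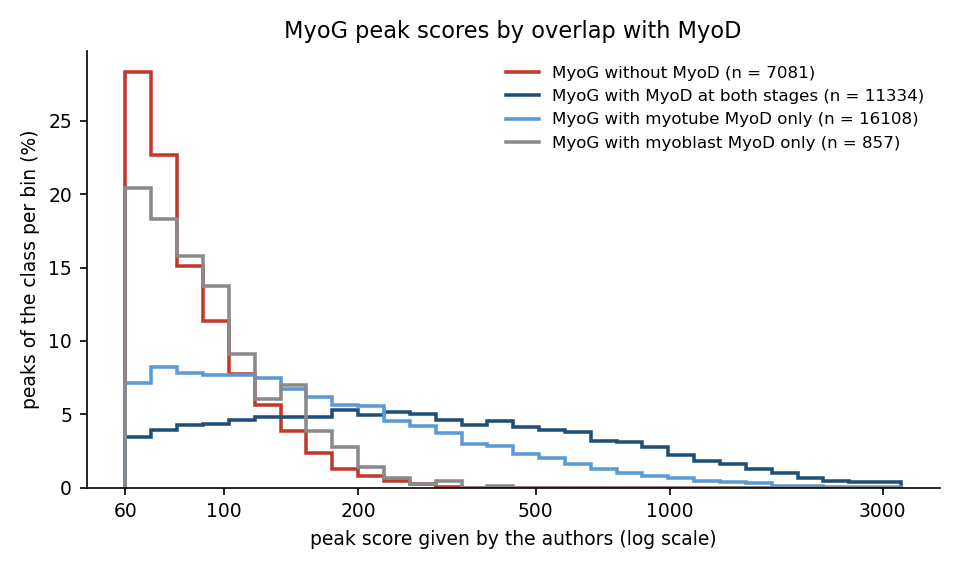
The authors' peak score on a log axis against the percent of each class of MyoG peaks per bin, with 1 line per class. The line for MyoG peaks without MyoD is highest at the low end, with a median of 77.82, and the line for MyoD at both stages spreads to above 3000.

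Cutting the whole MyoG list into 4 groups of equal size by score showed how the sites thinned out with strength. In the lowest group, with scores up to 84.15, peaks without MyoD made up 47.9% (4234 peaks). They made up 25.3% (2239) of the second group, 6.78% (600) of the third and 0.0905% (8) of the highest. The plot of scores by class shows the same gradient. Since neither MyoD list was examined below its own score threshold, MyoD binding too weak to be listed cannot be told apart from no binding at these sites. The labels name 2 MyoD runs per stage and the header of the myotube MyoD list names run 2, so whether that list used all reads is not known.

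Members just inside and just outside the rule differed little in score. The 142 sites with a MyoD peak nearer than 100 bp had a median score of 75.67, and the 81 MyoG peaks that shared 1 to 100 bp with MyoD peaks had a median of 75.6. The share in a myotube H3K4me1 domain was 95.1% in each of those 2 sets, and in a myoblast domain 80.3% and 81.5%. Most sites were much farther from MyoD: the median gap to the nearest MyoD peak of either stage was 7162 bp (quartiles 2115 and 20093). A MyoD peak lay nearer than 1000 bp at 1044 sites (14.7%) and nearer than 10000 bp at 4084 (57.7%), while 246 sites (3.47%) were 100000 bp or more from every MyoD peak. Another site of the same kind lay within 10000 bp of 1220 of them (17.2%).

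H3K4me1 was found at a smaller share of the MyoG peaks without MyoD than of the other MyoG peaks. In myotubes 4761 of 7081 sites (67.2%, exact 95% Clopper-Pearson interval 66.1 to 68.3) overlapped a domain, against 88.8% (88.4 to 89.1) of all other MyoG peaks. The share was 92.8% with MyoD at both stages, 86.2% with myotube MyoD only and 83.5% with myoblast MyoD only, so MyoG peaks without MyoD lay below all 3 other classes. Domains covered 8.94% of the span of the chromosomes in myotubes and 7.91% in myoblasts. These intervals cover counting error of peaks only, and with 1 library for each mark and stage no test over samples was possible.

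In myoblasts, where MyoG was not mapped, 3750 of the sites (53.0%, interval 51.8 to 54.1) lay in an H3K4me1 domain, against 66.2% (65.6 to 66.7) of all other MyoG peaks. Here the sites did not stand below every class. Peaks with MyoD at both stages were marked in 88.7% and those with myoblast MyoD only in 91.8%, whereas those with myotube MyoD only were marked in 49.0% (48.2 to 49.8). The myoblast mark at sites without MyoD was thus nearer to that at the sites that MyoD itself joins only in myotubes.

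Putting the stages together, 3316 sites (46.8%) were marked at both, 1445 (20.4%) in myotubes only, 434 (6.13%) in myoblasts only and 1886 (26.6%) at neither. Of all other MyoG peaks 63.8% were marked at both, 2.37% in myoblasts only and 8.86% at neither. The 4 states had near-equal scores, with medians of 78.195 at both stages, 80.2 in myotubes only, 72.85 in myoblasts only and 77.18 at neither. They differed in their distance from MyoD: the median gap to the nearest MyoD peak was 4037.5 bp for sites marked at both stages, 6038 bp in myotubes only, 13056 bp in myoblasts only and 16716.5 bp at neither. Sites marked in myoblasts only lay within 1000 bp of a gene locus end in 25.8%, against 7.34% of those marked in myotubes only.

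Where a domain was present it was shorter and somewhat less enriched than at other MyoG peaks. The median myotube domain at these sites was 3800 bp long with a deposited fold over control of 2.99, against 5000 bp and 3.31 at all other MyoG peaks. In myoblasts the values were 4000 bp and 2.48 against 4400 bp and 2.65. By class, the myotube fold was lowest at these sites, but myotube domains at peaks with myoblast MyoD only were shorter, at 3400 bp. In myoblasts, domains at peaks with myotube MyoD only were shorter and less enriched than at the sites, at 3800 bp and 2.38. Over all domains the median length was 2400 bp in myotubes and 2200 bp in myoblasts.

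**Figure D2:**
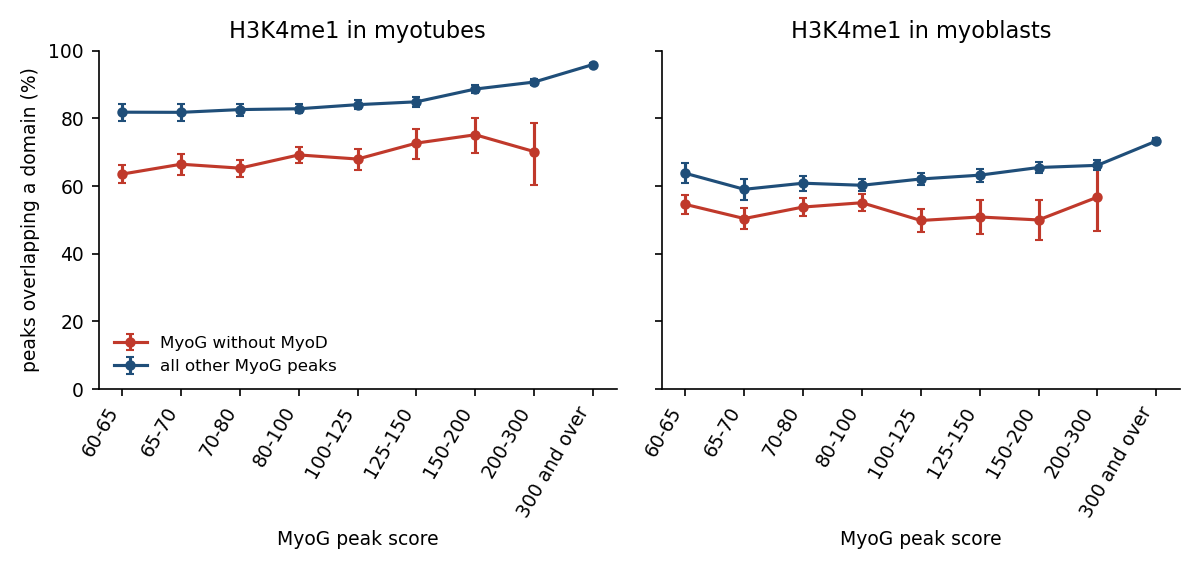
Percent of MyoG peaks that overlap an H3K4me1 domain, in myotubes on the left and myoblasts on the right, by bin of the authors' MyoG score, with exact 95% binomial intervals as bars. MyoG peaks without MyoD lie below all other MyoG peaks in every bin drawn for both, from 63.6% against 81.8% at scores of 60 to 65 in myotubes; bins of fewer than 50 peaks, here the 6 sites at 300 and over, are not drawn.

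The lower share was also present among peaks of like score. Within the lowest of the 4 score groups, 65.3% of the sites and 82.2% of all other MyoG peaks were in a myotube domain. In the second group the shares were 69.5% and 83.5%, and in the third 73.0% and 89.2%. In the plot of H3K4me1 by score the myotube intervals of the sites and of the other peaks were apart in all 8 bins drawn for both. In myoblasts the shares for the sites were 53.3%, 52.6% and 52.2% in these groups, with 60.7%, 61.2% and 65.8% for the others, and the intervals overlapped only in the bin from 200 to 300. The myoblast order did not hold for every class. Peaks with myotube MyoD only were marked in 49.2%, 49.3% and 50.6%, below the sites in each of these groups. Of the 8 sites of the highest group, 1 was in a myotube domain (interval 0.316 to 52.7%), below the share of the sites in the other groups. In a myoblast domain 3 of the 8 were found (8.52 to 75.5%), an interval that holds the myoblast shares of the other groups.

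The mark was rarer at sites farther from MyoD. Sites with a MyoD peak nearer than 100 bp were in a myotube domain in 95.1%, those at 100 bp to under 1000 bp in 91.6%, those at up to 10000 bp in 75.1%, those at up to 100000 bp in 53.1%, and those farther away in 22.0% (interval 16.9 to 27.7). In myoblasts the share was lower in the same order, from 80.3% through 73.8%, 56.8% and 43.2% to 22.4%. The median score did not fall with distance: it was 75.67 in the nearest class and 80.97 in the farthest. Of the 4761 sites in a myotube domain, 1827 (38.4%) lay in a domain that also held a myotube MyoD peak elsewhere along its length. The share of sites in a domain of their own, holding no myotube MyoD peak, was 7.75% in the nearest class, 44.2% between 1000 and 10000 bp, 52.8% between 10000 and 100000 bp and 22.0% beyond. Distance in part fixes this share, since a domain can hold only the MyoD peaks within its length. The median myotube domain was 5600 bp long in the nearest class and 2600 bp between 10000 and 100000 bp.

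**Figure D3:**
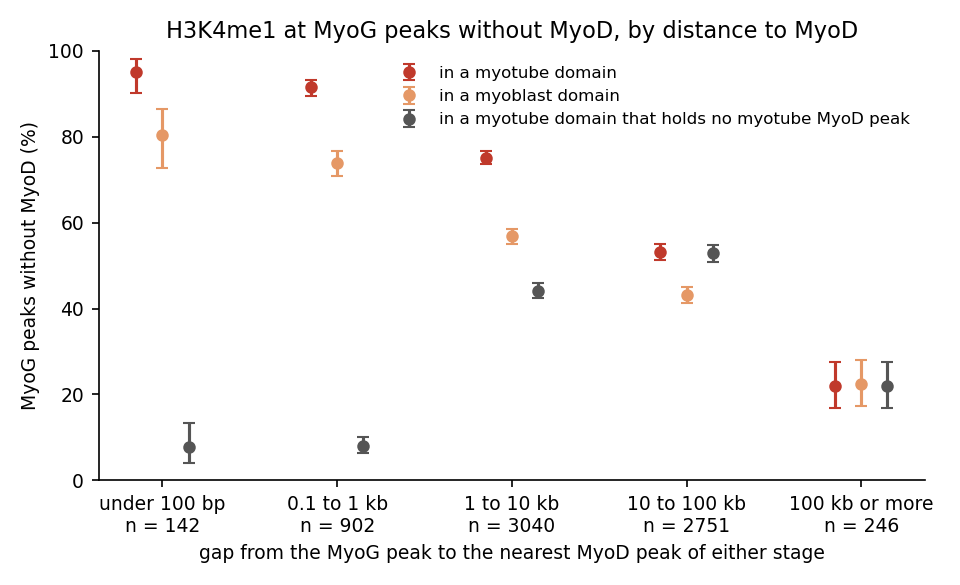
Percent of MyoG peaks without MyoD in an H3K4me1 domain, by the gap in bp to the nearest MyoD peak of either stage, with exact 95% binomial intervals as bars and the number of sites under each class. The myotube share goes from 95.1% in the nearest class to 22.0% in the farthest. The share in a domain that holds no myotube MyoD peak is highest, at 52.8%, between 10 and 100 kb, and is in part fixed by the distance.

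The 10 strongest of the sites lay more than 1000 bp from a locus end, and 5 of them had no H3K4me1 at either stage. The nearest ends were those of Ckap4, at 1143 bp, and Foxo3, at 1173 bp. The highest score was 506.04, at chr13:23350412-23350966, 8219 bp from Vmn1r223, a vomeronasal receptor gene, and more than 100000 bp from MyoD. It was followed by a peak of 412.3 at chr13:95238531-95238830 inside Ap3b1, a subunit gene of an adaptor complex for lysosomal sorting, and one of 370.7 at chr14:13862242-13862781, 127119 bp from the nearest locus. The peak of 334.93 at chr12:15652366-15652945 lay 145586 bp from Trib2, a pseudokinase gene. The peak of 306.96 at chrX:54005341-54005785 lay inside Fhl1, a LIM-domain gene of skeletal muscle, and was in an H3K4me1 domain at both stages. Of the 10 strongest sites 3 were marked in myotubes, 4 in myoblasts and 5 at neither stage, and 0 were within 1000 bp of a locus end. Of the 100 strongest, 65 were marked in myotubes, 55 in myoblasts and 29 at neither stage, 3 were at a locus end and 14 had a MyoD peak nearer than 1000 bp. Over all sites 67.2% were marked in myotubes, 53.0% in myoblasts and 26.6% at neither stage. A locus end was near 12.5% of all sites and a MyoD peak near 14.7%. In these shares the 100 strongest were thus close to all sites except at locus ends. More than 5000 bp from every locus lay 44 of the 100 strongest, against 36.3% of all sites. The 10 strongest sites are too few to compare.

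By position, the sites were spread like the rest of the MyoG peaks. With the gene loci of the expression tables as reference (20568 loci in mm9, without strand), 3724 sites (52.6%, interval 51.4 to 53.8) overlapped a locus, against 53.3% of all other MyoG peaks. A further count put 2569 (36.3%, 35.2 to 37.4) more than 5000 bp from every locus, against 37.2%. Outside loci the median gap to the nearest one was 19836 bp. Their share of the MyoG peaks of a chromosome ran from 17.4% on chromosome 8 to 23.7% on chromosome 10.

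Promoter-proximal sites were a small part. A locus end lay within 1000 bp of 888 sites (12.5%, interval 11.8 to 13.3), against 10.9% (10.6 to 11.3) of all other MyoG peaks. Within the lowest of the 4 score groups the shares were 13.5% and 13.6%, and in the second 11.7% and 12.9%, so among peaks of like score the sites were not the higher ones. With strand taken from RefSeq for 16151 of the loci (78.5%), the 5′ end was within 1000 bp of 583 sites (8.23%, 7.60 to 8.90), against 6.64% (6.35 to 6.94) of the others, and the 3′ end within 1000 bp of 217 (3.06%), against 3.11%. A peak without MyoD covered a 5′ end at 197 sites (2.78%), against 2.92% of the others. The highest scores at a locus end were 230.12 at Slco1a6, a gene of an organic anion transporter, 211.85 at Nono, which makes a nuclear RNA-binding protein of paraspeckles, and 205.35 near Cd200r2, and these 3 sites were unmarked at both stages. The next, near Mlxip (203.66), Tmsb10 (203.2) and Epha2 (202.22), were marked at both.

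H3K4me1 at the sites differed with where they lay. Sites inside a locus and away from its ends were in a myotube domain in 73.5%, those more than 5000 bp from every locus in 60.6%, and those at a locus end in 63.3%. The shares for all other MyoG peaks were 92.0%, 88.7% and 74.4%, so the gap to the other peaks was widest far from genes and narrowest at gene ends. In myoblasts the order was another one: sites at locus ends were marked in 64.0%, close to the 65.5% of other MyoG peaks there, against 53.9% inside loci and 47.6% far from them. Among the 197 sites that cover a 5′ end, 44.2% (37.1 to 51.4) were in a myotube domain and 53.3% (46.1 to 60.4) in a myoblast domain. The 826 other MyoG peaks over a 5′ end had 61.1% and 60.4%.

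The genes whose start lay under a MyoG peak without MyoD were mostly transcribed. Of 219 such genes, 88.1% reached 1 FPKM in GFPi, 88.6% in DRRi, 88.6% in pHAN_GFP and 89.0% in pHAN_DRR1.2. The genes under another MyoG peak (872) had 83.4%, 83.0%, 85.2% and 86.5%, and all genes with a strand (16042) had 52.6%, 53.0%, 53.4% and 53.4%. Among the 6 printed genes, Sf3b2 stood at 82.2 FPKM in GFPi and 79.4 in DRRi, Pin4 at 41.6 and 46.3, Ppap2c at 38.9 and 53.9, Eif2b2 at 31.1 and 35.3, and Prcc at 18.2 and 21.2. Dguok was lower, at 10.0 FPKM in GFPi and 8.82 in DRRi.

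E-box letters were sparser at these starts than under other MyoG peaks of all scores, with overlapping intervals among peaks of score under 100. A start was matched to RefSeq by symbol and length for 7190 of 20568 loci (35.0%), and 96 of the matched starts were covered by a peak without MyoD and by no other MyoG peak. On either strand of the 250 upstream bases, CANNTG was present at 53 of the 96 (55.2%, interval 44.7 to 65.4), against 75.9% of 370 starts under another MyoG peak and 64.7% of all matched starts. CAGCTG, a palindrome that also counts as CANNTG, was present at 11 (11.5%, 5.86 to 19.6), against 39.2% under other MyoG peaks, 11.3% of all matched starts and 12.9% of all 19876 RefSeq starts. CAGGTG or its reverse complement CACCTG was present at 9 (9.38%, 4.38 to 17.1), against 23.8%, 16.1% and 17.2%. Among peaks of score under 100, CAGCTG was present at 10 of 71 starts without MyoD (14.1%, 6.97 to 24.4). Under other MyoG peaks of such scores it was present at 30 of 107 (28.0%, 19.8 to 37.5). CANNTG was present at 57.7% (45.4 to 69.4) and 70.1% (60.5 to 78.6) of these starts. For CAGGTG or CACCTG the shares were 11.3% (4.99 to 21) and 22.4% (14.9 to 31.5). The intervals overlap for each of these motifs. A peak had only to cover the start, so peaks extend beyond these windows and some windows extend beyond their peak. Letters outside a peak were thus counted too. The peaks over a 5′ end had a median length of 508 bp without MyoD and 620.5 bp for the others. The bases under most of the sites were not read, since no genome of the build of the lists was used here.

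Genes near a site were taken as those whose locus lay within 10000 bp. Of 20368 gene symbols, 1357 (6.66%) were near a MyoG peak without MyoD and near no other MyoG peak, 3409 (16.7%) were near both kinds, 6012 (29.5%) were near other MyoG peaks only and 9590 (47.1%) were near none. Of the 1357, 1176 had 1 such site and 514 (37.9%) also had a MyoD peak within 10000 bp. The genes with the most sites were long and rich in all kinds of MyoG peak: Maml3, a Notch coactivator gene, and Tns3, a focal adhesion gene, had 9 each beside 16 other MyoG peaks each. Lpp and Samd4 had 8 each beside 10 other MyoG peaks each.

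Expression of the 1357 genes was measured at 4 h, earlier than the 48 h at which MyoG was mapped, and in bulk RNA fewer cells of a type and less RNA per cell cannot be told apart. In GFPi 65.5% of them (interval 62.9 to 68.0) reached 1 FPKM, close to the 66.7% of genes near other MyoG peaks only, below the 72.0% (70.4 to 73.5) of genes near both kinds and above the 33.0% of genes near no MyoG peak. In pHAN_GFP the shares were 65.4%, 68.0%, 74.0% and 33.1%. Among genes whose mean reached 1 FPKM, the median level in GFPi was 13.2 FPKM for these genes and 12.9 FPKM for all. Genes with a site marked in myotubes reached 1 FPKM in 70.5% of 765 cases in GFPi, and those with unmarked sites only in 55.5% (50.8 to 60.1) of 456. The genes with sites marked in myoblasts only reached it in 71.3% of 136 cases.

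Most of the genes near these sites differed little between DRR knockdown and its control. On the scale of log2(FPKM + 1), 890 of the 1357 genes passed a mean of 1 FPKM, with a median difference of DRRi minus GFPi of 0.02, against 0.02 for all 10577 genes kept. A difference of 1.5-fold or more on this scale was found upward for 42 genes (4.72%), against a background of 4.66% of all genes, and downward for 21 (2.36%, interval 1.47 to 3.58), against 3.5%. At 2-fold, 10 were higher and 5 lower, against backgrounds of 0.898% and 0.804%. By the authors' deposited table, a q-value under 0.05 was reached by a coding sequence upward in 6 and downward in 2 of these genes, with backgrounds of 0.643% and 0.577%; 1 of the 6, Cdkn1c, had a lower summed FPKM in DRRi (3.30) than in GFPi (4.23). The upward share is at the background, and with 1 library per condition none of these counts has a replicate check.

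The gene with the highest difference was Sfrp2, a secreted antagonist of Wnt signalling, at 6.69 FPKM in GFPi, 26.1 in DRRi, 75.8 in pHAN_GFP and 23.7 in pHAN_DRR1.2. It was higher with DRR knockdown (log2 difference 1.82, q-value of 3.72e-05 in the authors' deposited table) and lower with DRR overexpression (-1.64, q-value listed as 0 in the authors' deposited table). Its site, of score 132.35, lay 6903 bp from the locus and 52288 bp from the nearest MyoD peak, in an H3K4me1 domain at both stages. H2afx, the histone variant of the DNA damage response, went from 6.68 FPKM in GFPi to 20.5 in DRRi (1.48), and stood at 10.9 in pHAN_GFP and 13.5 in pHAN_DRR1.2. Its site lies inside the short locus, with a score of 60.47, in an H3K4me1 domain in myotubes only.

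Lats2, a kinase gene of the Hippo pathway, was also higher, at 7.99 FPKM in GFPi and 18.7 in DRRi (log2 difference 1.13), with 2 sites. Etv5, an ETS transcription factor gene downstream of FGF signalling, was at 3.24 and 7.62 FPKM (1.02), with 3 sites, of which the strongest had a score of 174.01 and no H3K4me1 at either stage. Eef2, Rpl26 and Rpl30, genes of the translation machinery, were at 465, 53.1 and 52.2 FPKM in GFPi and 982, 112 and 108 in DRRi; ribosomal protein genes have near-identical copies, so the values of Rpl26 and Rpl30 are uncertain. Krt19, a keratin gene, was at 7.22 and 15.5 FPKM (1.00). In the authors' deposited table Lats2 and H2afx had q-values of 0.0217 and 0.0112, and Etv5, Eef2, Krt19, Rpl26 and Rpl30 were above 0.05. Overexpression of the DRR RNA left Lats2 (log2 difference -0.03), Etv5 (0.06) and Eef2 (0.11) near the level of pHAN_GFP.

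At the low end Anpep, the aminopeptidase CD13, was at 13.5 FPKM in GFPi and 5.08 in DRRi (log2 difference -1.25, q-value 0.0097 in the authors' deposited table). Spon2, a matrix protein gene named here after its value was seen, was at 4.80 and 1.43 FPKM (-1.26, q-value 0.0381 in the authors' deposited table). Hcfc1r1 was at 48.1 and 20.6 FPKM, and Tigit, an immune receptor gene, at 11.8 and 5.55. Nsdhl and Sc4mol, enzymes of sterol synthesis, were at 57.9 and 31.3 FPKM and at 121 and 70.2 FPKM. Ccne2, the S-phase cyclin E2, was at 32.8 and 17.7 FPKM, and Prkab2, a subunit gene of AMP kinase, at 9.42 and 4.85. None of these last 6 had a q-value under 0.05 in the authors' deposited table.

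Fewer of these genes differed under overexpression of the DRR RNA. Of 893 genes kept, 7 (0.784%, interval 0.316 to 1.61) exceeded the pHAN_GFP level by 1.5-fold in pHAN_DRR1.2, against a background of 1.38%, and 4 (0.448%, 0.122 to 1.14) were lower, against 0.654%. The median log2 difference was 0.02, as for all 10699 genes kept. At 2-fold 0 were higher, against 0.318%, and 1, Sfrp2, was lower, against 0.0841%. A q-value under 0.05 in the authors' deposited table was reached upward by 5 genes and downward by 4, against 1.03% and 0.589%. Mdm1, 0610007P22Rik and, for the knockdown, Cdkn1c are named here for their calls: the authors called single coding sequences of these genes, 0610007P22Rik in both directions, while the summed FPKM differed by less than 1.5-fold.

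Mmp2, the matrix metalloproteinase gelatinase A, was at 147 FPKM in pHAN_GFP and 88.8 in pHAN_DRR1.2 (log2 difference -0.73, q-value 0.00641 in the authors' deposited table), and at 40.7 in GFPi and 41.8 in DRRi. Its site lay 1009 bp beyond the locus with a score of 98.14, in a domain in myotubes only. Krt19 was the highest, at 4.20 and 8.70 FPKM (0.90), and was thus higher under both knockdown and overexpression. Serpinb9b, a serine protease inhibitor gene, was at 9.72 FPKM in pHAN_GFP and 18.1 in pHAN_DRR1.2 (0.83), and at 5.51 in GFPi and 1.91 in DRRi (-1.16). Klf2, a zinc finger factor gene of the immediate early list, was at 5.29 and 8.99 FPKM (0.67), and its site, of score 174.28, lay 27 bp inside a locus end in an H3K4me1 domain at both stages. Fmod, the matrix proteoglycan fibromodulin, was at 8.73 and 5.53 FPKM (-0.58). For the overexpression, the authors' deposited q-values were 0.0486 for Krt19 and 0.00985 for Serpinb9b. Those of Klf2 (0.222) and Fmod (0.248) were above 0.05, as was that of Serpinb9b in the knockdown (0.105).

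**Figure D4:**
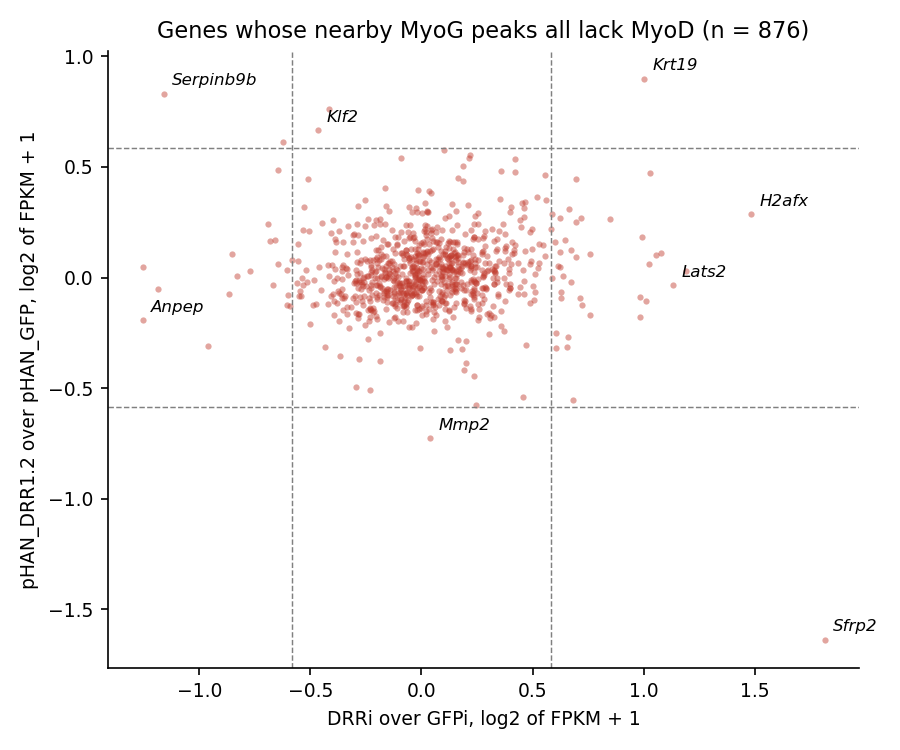
Log2 difference of FPKM + 1 for the 876 genes near a MyoG peak without MyoD and no other MyoG peak that passed the level filter in both experiments, knockdown on the horizontal and overexpression on the vertical axis, with dashed lines at 1.5-fold. Most points lie inside the dashed box, and Sfrp2 lies alone at 1.82 and -1.64.

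Of the 4 gene lists of the muscle programme, 3 held 0 genes with these sites as the only MyoG peaks nearby. Of 15 myogenic regulators, 31 sarcomere genes and 21 genes of fusion and adhesion, 0 were near a MyoG peak without MyoD and no other MyoG peak, against 6.66% of all symbols. A gene with any other MyoG peak nearby cannot enter this count, so 0 does not mean that the sites were absent there. Of the regulators 13 were near other MyoG peaks, 7 of them near both kinds, and of the sarcomere genes 30 were, 8 of them near both kinds. Of the fusion and adhesion genes 13 were near both kinds, and of the genes of excitation, synapse and muscle metabolism 10 were. Of all symbols 16.7% were near both kinds. Myod1 had 2 and Myog 5 other MyoG peaks and neither had a site without MyoD, while Itga7, the laminin-binding integrin of muscle, had 2 of each kind. Of 26 genes of excitation, synapse and muscle metabolism 2 (7.69%) were near such sites alone, a share near that of all symbols. These were Ckmt2, the mitochondrial creatine kinase of muscle, with a site of score 69.16 over a locus end, and Sln, the calcium pump regulator sarcolipin, with 2 sites, the stronger of score 188.46 and unmarked. Neither exceeded 0.0213 FPKM in any library at 4 h.

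The other lists held 1 to 3 such genes each. They were 2 of 27 cell cycle genes (Ccne2 and Mki67), 2 of 17 of the actin cytoskeleton and SRF (Flna and Fhl1), 1 of 20 of the extracellular matrix (Mmp2), 3 of 21 immediate early genes (Egr3, Klf2 and Dusp1), 2 of 14 housekeeping genes and 1 of 20 ribosomal protein genes (Rpl23). Fhl1, with the fifth strongest site of all, was at 37.5 FPKM in GFPi, 62.3 in DRRi, 157 in pHAN_GFP and 190 in pHAN_DRR1.2 (log2 differences 0.72 and 0.27). Egr3 was at 3.06 and 1.60 FPKM in the knockdown pair (-0.64), and at 5.01 and 7.42 in the overexpression pair (0.49). With the 1.5-fold criterion, Fhl1 was higher and Ccne2 and Egr3 were lower in DRRi, and Klf2 was higher and Mmp2 lower in pHAN_DRR1.2. The other 8 genes of these lists differed by less in both pairs.

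**Figure D5:**
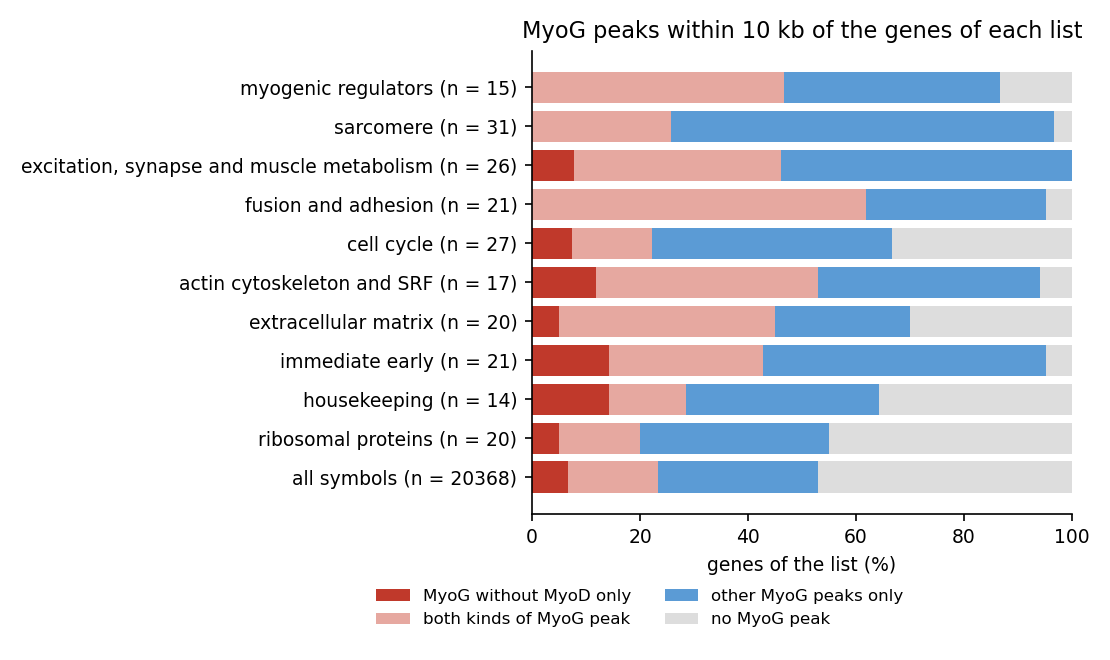
Percent of the genes of each list by the kind of MyoG peak within 10 kb of the locus, with the number of genes in brackets. The dark red share, genes near MyoG peaks without MyoD alone, is 0 for myogenic regulators, sarcomere and fusion genes and 6.66% for all symbols. Genes near both kinds of MyoG peak are drawn apart from it and make up 16.7% of all symbols.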

How the data were processed

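The authors' MyoD and MyoG peaks, called with MACS per the file headers, carry a score of at least 60 with its definition, MACS version, control and pooling of runs not given in the sources used here. The labels name 2 runs for each MyoD and MyoG sample, the files hold 1 list each, and the header of the myotube MyoD list names run 2, so whether the absence of MyoD at a site rests on all MyoD reads is not known. H3K4me1 domains, on 200 bp windows, carry the authors' deposited count of ChIP and control reads, their fold (ratio) and a p-value; the submitters' processing notes name SICER. The 2 expression tables give the authors' deposited FPKM and q-value for 24333 coding sequences in mm9, with TopHat named in the submitters' processing notes and the comparison tool not given in the sources used here. The libraries' read depths are unknown; peak scores and counts limit the precision. In each table the condition not named for GFP was taken as DRRi or pHAN_DRR1.2.

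Overlap meant 1 bp or more. FPKM was summed per symbol, genes whose mean reached 1 FPKM were kept, and differences are log2(FPKM + 1), which understates the change of low genes; each table was scaled on its own. Shares have exact 95% intervals (scipy 1.17.1, Python 3.11.15), which cover counting error only. With 1 sample per group nothing was tested across genes. Computations were tested on simulated intervals and tables. Genes were named by rule: the 8 highest and 8 lowest differences at a mean of 5 FPKM or more, the 10 strongest sites and the strongest at locus ends, the genes with most sites, the members of 10 gene lists, and markers; exceptions are stated, and some named genes are not reported here. The sites and lists were chosen with earlier results of these data known.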

Additional observations from a re-analysis of the deposited data

How the results depend on the processing

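No paired analysis was possible because each group held 1 sample. Of the alternative values, 37 stayed within the counting interval or 1.5 times the count and 30 moved further. Under every one of the 8 other definitions the sites stayed below the other MyoG peaks in H3K4me1 at both stages. Requiring no MyoD within 1000 bp gave 62.9% marked in myotubes and 49.2% in myoblasts. MyoG scores of 100 or more left 1732 sites with a median score of 122.97, a median length of 538 bp, 70.3% and 50.5% marked, and 10.3% at a locus end. Counting only MyoD peaks of score 100 or more gave 11044 sites, a score of 82.82, 481 bp and 71.2% in myotubes. The myotube MyoD list alone gave 78.555, 469 bp, 69.0%, 57.2% and 11.7%. With 50% of the peak inside domains the marked shares were 64.8% and 50.1%, and with a domain fold of 2 or more 60.1% and 38.9%. The share at a locus end was 8.83% within 500 bp, 17.2% within 2000 bp and 8.23% for 5′ ends only, an alternative added after the data were seen. The share far from loci was 30.6% beyond 10000 bp and 14.0% beyond 50000 bp. With a pseudocount of 0.1, 10.0% of genes near the sites alone differed 1.5-fold in the knockdown (7.08% with 1) and 2.91% in the overexpression (1.23% with 1), where all genes had 11.4% and 3.27%. With no filter the knockdown share was 4.79%, above the 4.51% of all genes, whereas with the filter it was below theirs (8.16%), and the median level was 5.23 FPKM. E-boxes within the peaks were not searched, since no mm9 genome was used here.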
